A study of Mus musculus with 6 samples.

Results

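The solute carrier family 25 (SLC25) comprises the nuclear-encoded carriers of the inner mitochondrial membrane. Its members were taken as every gene symbol that begins with Slc25a, apart from the carriers of citrate (Slc25a1), dicarboxylates (Slc25a10), 2-oxoglutarate (Slc25a11) and acylcarnitines (Slc25a20), which gave 43 of the 24421 symbols in the counts. The counts and values below cover 42 of them, of which 34 had enough reads for a test between the groups and 8 did not. The uncoupling proteins (Ucp1, Ucp2 and Ucp3) belong to the family but fall outside the rule by their symbols.

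RNA-Seq was performed on 3T3-L1 cells, a mouse fibroblast-like line that turns into fat-storing adipocytes under a hormone cocktail. All cells received insulin (870 nM), TZD (5 µM), Dex (1 µM), IBMX (500 µM) and serum (10% CS) from 2 days after confluency, with IBMX and Dex left out from day 3. On day 7 they were infected with 100 pfu/cell of an adenovirus carrying LacZ (AdLacZ, control) or Lmo3 (AdLmo3), RNA was isolated 72 h later, and each group held 3 libraries from separate infections. Both groups carry a virus, so that neither shows uninfected cells, and the strain field of the labels reads C57BL/6 for all samples of this line. The endogenous Lmo3 symbol had a count of 0 in all 6 libraries and the viral Lmo3 is codon-optimized, so the labels could not be checked through this gene.

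Most SLC25 proteins sit in the inner membrane, where they exchange nucleotides, phosphate, amino acids, cofactors and ions between the cytosol and the mitochondrial matrix. Each consists of repeated modules of paired membrane-spanning helices that alternately open a central binding site to either side. In adipocytes this traffic links mitochondrial metabolism to fatty acid synthesis and to ATP supply in the cytosol. A few members are placed elsewhere, such as Slc25a17 in peroxisomes and Slc25a46 in the outer mitochondrial membrane.

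The libraries held 28035639 to 38332335 counts on genes, and no pair of replicates agreed within sampling noise (chi-square per degree of freedom 22.9 to 61.6). The adipocyte markers were abundant, with 20559 to 22750 CPM (counts scaled to a common library size with TMM factors) summed over 10 genes in AdLacZ and 27853 to 33702 CPM in AdLmo3 libraries, and 8 of the 10 were called higher. Of the 10 preadipocyte and fibroblast markers none was called, and their sums of 18423 to 22238 CPM and 17411 to 25398 CPM overlapped. The 4 macrophage markers summed to 2.00 to 4.58 CPM, with counts of 0 to 2 for Ptprc and Adgre1. In these bulk libraries a different number of cells of a type cannot be told apart from a different amount of RNA per cell, and the part of the adipocyte markers' difference in the carriers' values was not tested.

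Among these 34 tested carriers, edgeR called 0 higher and 2 lower (Slc25a26 and Slc25a33) in AdLmo3 at an adjusted p under 0.05. Over all 12766 tested genes the called shares were 2.71% higher and 1.57% lower, and the carriers' share of 5.88% lower rests on 2 genes. The 547 called genes split into 346 higher and 201 lower, and with library size as the only scaling into 266 higher and 501 lower of 767, as the TMM factors were 1.02 to 1.04 in AdLacZ and 0.964 to 0.985 in AdLmo3 libraries. The median log2 fold change of the carriers was -0.05, against 0.00 for all tested genes, with 15 carriers above and 19 below 0. An unadjusted p under 0.05 was reached by 20.6% of the carriers, 3 higher and 4 lower, and by 20.6% of all genes. The groups did not overlap for 9 carriers (26.5%) and for 26.5% of all genes. Summed over the tested carriers, the level was 2961 to 3109 CPM in AdLacZ and 3077 to 3205 CPM in AdLmo3 libraries, with overlap.

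**Figure D1:**
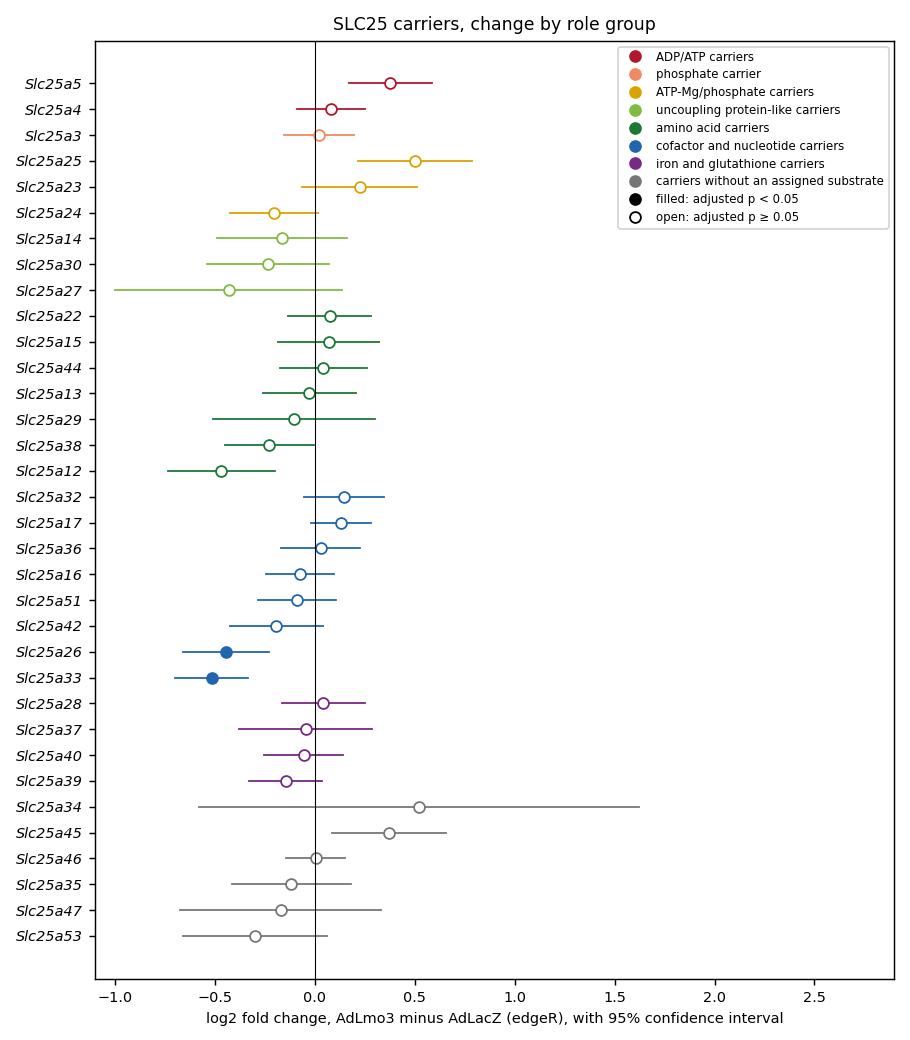
Log2 fold change of each tested SLC25 carrier (AdLmo3 minus AdLacZ, edgeR, horizontal axis) with its 95% confidence interval, ordered and colored by role. Filled points are the 2 carriers with an adjusted p under 0.05, both in the cofactor and nucleotide group, and the interval of Slc25a34 is the widest at -0.58 to 1.62.

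The carriers were led by the machinery of ATP export. Expressed per kb of the principal transcript, the 5 highest were Slc25a5, Slc25a3, Slc25a4, Slc25a39 and Slc25a22, with mean levels in AdLacZ of 364, 291, 244, 230 and 48.5 CPM per kb. The SDs of the first 4 were 3.42, 19.6, 8.002 and 13.2 CPM per kb (n = 3), so that Slc25a4 and Slc25a39 lay within reach of each other's spread while Slc25a5 stood above Slc25a3. In AdLmo3 libraries the means of these 4 were 473, 296, 258 and 208 CPM per kb (SD 54.6, 12.5, 17.0 and 14.5). The order depends on the length used: divided by all annotated exons, Slc25a3 ranked 4 and Slc25a22 ranked 9, whereas Slc25a5 stayed at 1.

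**Figure D2:**
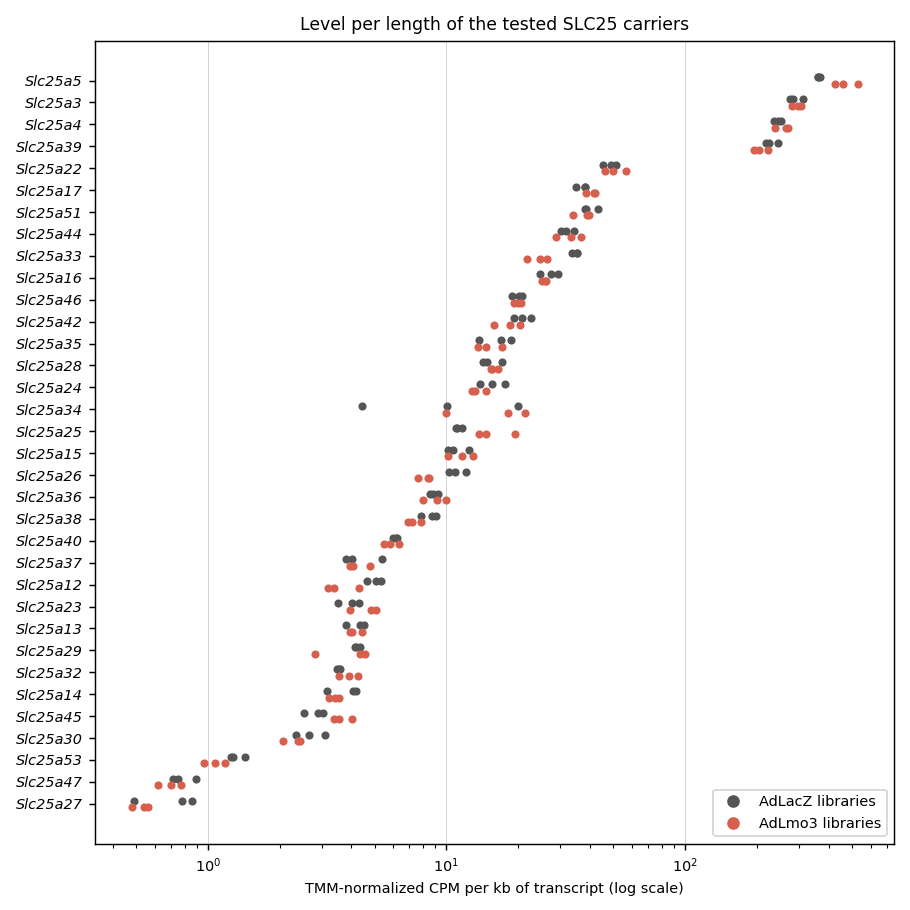
TMM-normalized CPM per kb of the principal transcript (log axis) of the 34 tested SLC25 carriers in each of the 3 AdLacZ (gray) and 3 AdLmo3 (red) libraries. The 4 leading genes stand apart from the other carriers in every library, and Slc25a34 shows the widest scatter within a group.

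Slc25a5 and Slc25a4 encode the ADP/ATP carriers ANT2 and ANT1, which exchange matrix ATP for cytosolic ADP. Slc25a5 (chromosome X, 36795651 to 36798807) had 456, 448 and 450 CPM in AdLacZ replicates 1, 2 and 3 and 526, 573 and 660 CPM in AdLmo3 replicates 1, 2 and 3. All 3 AdLmo3 libraries lay above all AdLacZ libraries, and the AdLmo3 values were the more scattered. The log2 fold change of 0.38 (standard error 0.0907) did not pass the threshold, with an adjusted p of 0.0604. Of the 75-base stretches of its transcripts, 19.8% also occur in other annotated genes (most of all in Gm5560, Gm5529 and Gm5256), so its count carries that uncertainty. Slc25a4 had 471, 484 and 454 CPM in AdLacZ and 509, 521 and 459 CPM in AdLmo3 libraries, with overlapping groups (log2 fold change 0.08, adjusted p = 0.608).

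The phosphate carrier Slc25a3 supplies the phosphate for ATP synthesis. Its levels were 445, 505 and 459 CPM in AdLacZ and 481, 494 and 454 CPM in AdLmo3 libraries. The groups overlapped, and the 95% interval of the log2 fold change ran from -0.15 to 0.19. The sign of this small value changes with library size as the only scaling (-0.05).

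The calcium-regulated carriers that exchange ATP-Mg for phosphate adjust the adenine nucleotide content of the matrix. Slc25a25 had 38.4, 36.2 and 36.7 CPM in AdLacZ and 63.9, 45.1 and 48.3 CPM in AdLmo3 libraries. The groups did not overlap, and AdLmo3 replicate 1 was the highest. Its log2 fold change of 0.50 (standard error 0.124) had an adjusted p of 0.0659, and without AdLmo3 replicate 1 it was 0.34 with an adjusted p of 0.0491. Slc25a24 had 60.1, 47.6 and 53.3 CPM in AdLacZ and 50.3, 45.2 and 44.1 CPM in AdLmo3 libraries, with overlap (log2 fold change -0.21, adjusted p = 0.275). No member of this group, in which 3 of 5 were tested, passed the threshold.

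Among the amino acid carriers 7 of 10 were tested and none passed the threshold. The aspartate/glutamate carriers feed the malate-aspartate shuttle, which brings reducing equivalents into the matrix. One of them, Slc25a12 (aralar), had 33.8, 32.1 and 29.6 CPM in AdLacZ and 27.2, 21.4 and 20.3 CPM in AdLmo3 libraries, so that the groups did not overlap. This log2 fold change of -0.47 (standard error 0.117) had an adjusted p of 0.0674. Its paralogue Slc25a13 (citrin) had 11.9, 14.0 and 13.5 CPM in AdLacZ and 12.6, 13.8 and 12.3 CPM in AdLmo3 libraries (log2 fold change -0.03, adjusted p = 0.916). The glycine carrier Slc25a38 also had groups that did not overlap, with a log2 fold change of -0.23 (adjusted p = 0.232). Its AdLacZ replicate 3 (14.04 CPM) and AdLmo3 replicate 1 (14.01 CPM) nearly met. Slc25a22, a glutamate carrier, had 127, 137 and 144 CPM in AdLacZ and 131, 140 and 159 CPM in AdLmo3 libraries, which overlapped.

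Both carriers that passed the threshold transport cofactors or nucleotides, a group of 8 that were all tested. The roles were assigned with earlier results known. Slc25a33 (chromosome 4, 149744036 to 149774277) and Slc25a36 both carry pyrimidine nucleotides, which mitochondria use for their DNA and RNA. Slc25a33 had 63.5, 66.6 and 66.8 CPM in AdLacZ and 49.8, 46.6 and 40.9 CPM in AdLmo3 libraries. The AdLacZ values were close together and all AdLmo3 values lay below them. Slc25a33 fell by 0.52 on the log2 scale (standard error 0.0795, edgeR's adjusted p = 0.0134), and the adjusted p was 0.0504 without AdLacZ replicate 2, 0.0763 without AdLacZ replicate 3 and 0.0673 without AdLmo3 replicate 2. The antisense gene Gm13068 overlaps 14.9% of its exons, and 11.4% of its 75-base stretches occur in that gene. The strand setting of the counting is not given in the sources used here. Slc25a36 had 44.5, 48.1 and 46.1 CPM in AdLacZ and 41.9, 47.6 and 52.1 CPM in AdLmo3 libraries. These overlapped, and the log2 fold change was 0.03 (adjusted p = 0.899), or -0.05 with library size as the only scaling.

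The sequences before the RefSeq starts of these 2 genes (GRCm38.p6, 250 bases each, 5′ to 3′ on the gene's strand) are shown because the encoded carriers share their substrates and 1 of the 2 genes was called. Capitals mark CACGTG, an E-box letter string, and GACGTCA, the core of a cAMP response element, searched on both strands, and the latter was added after the sequences were seen. In Slc25a36 the marked stretch is the 8-base palindrome TGACGTCA, in which GACGTCA occurs on both strands in overlapping places. Both lie on the minus strand, Slc25a33 at chr4:149774268-149774517 and Slc25a36 at chr9:97111042-97111291.
Slc25a33: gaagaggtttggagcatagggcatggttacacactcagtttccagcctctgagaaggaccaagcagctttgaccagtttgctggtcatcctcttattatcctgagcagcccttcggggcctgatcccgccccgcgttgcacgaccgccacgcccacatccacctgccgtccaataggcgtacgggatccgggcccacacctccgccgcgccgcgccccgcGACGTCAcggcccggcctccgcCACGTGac
Slc25a36: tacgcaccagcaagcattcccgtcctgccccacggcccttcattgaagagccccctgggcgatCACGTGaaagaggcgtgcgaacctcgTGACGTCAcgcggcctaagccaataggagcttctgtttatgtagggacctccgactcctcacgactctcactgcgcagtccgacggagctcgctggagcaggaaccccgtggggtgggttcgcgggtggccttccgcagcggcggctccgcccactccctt
On the strand printed, each held 1 copy of either string. The E-box string began 8 bases before the start in Slc25a33 and 187 bases before it in Slc25a36, and the cAMP response element core 30 and 160 bases before it. By the GENCODE annotation both genes start inside the printed windows, at 149774277 for Slc25a33 and 97111157 for Slc25a36. The distances therefore hold for the RefSeq starts only. In windows of 250 bases before to 50 after the start, CACGTG occurred in 6 of the 32 carriers with a RefSeq entry (18.8%) and in 8.09% of all 27025 genes. GACGTCA occurred in 4 carriers (Slc25a3, Slc25a25, Slc25a33 and Slc25a36, 12.5%) and in 3.60% of all genes. The sequences of Slc25a33 and Slc25a36 had been seen when this string was added, so these shares do not test its frequency. Of 5 further strings, GCATGCGC (NRF1) occurred in 2 carriers (3.05% of all genes) and AAGATGGCG (YY1) in Slc25a3 (1.64%). The 2 carriers with GCATGCGC were Slc25a31 and Slc25a54, which had too few reads for a test between the groups. No carrier held TCAAGGTCA (0.466% of all genes), TGATGNAA (4.51%) or TCACCCCAC (0.614%). Such matches describe letters only. Slc25a26 has no entry in the table.

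Slc25a26 (chromosome 6, 94500331 to 94604672) imports S-adenosylmethionine, the methyl donor for mitochondrial RNA and protein. It had 23.3, 20.9 and 19.8 CPM in AdLacZ and 16.3, 14.6 and 16.1 CPM in AdLmo3 libraries. All AdLmo3 libraries were below all AdLacZ libraries. Slc25a26 fell by 0.45 on the log2 scale (standard error 0.0935, edgeR's adjusted p = 0.0400). Leaving out any 1 of the 6 libraries raised the adjusted p to between 0.0577 (without AdLmo3 replicate 1) and 0.140 (without AdLmo3 replicate 2). Of the other 6 carriers in this group, which include those of coenzyme A (Slc25a42) and NAD+ (Slc25a51), none passed the threshold.

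**Figure D3:**
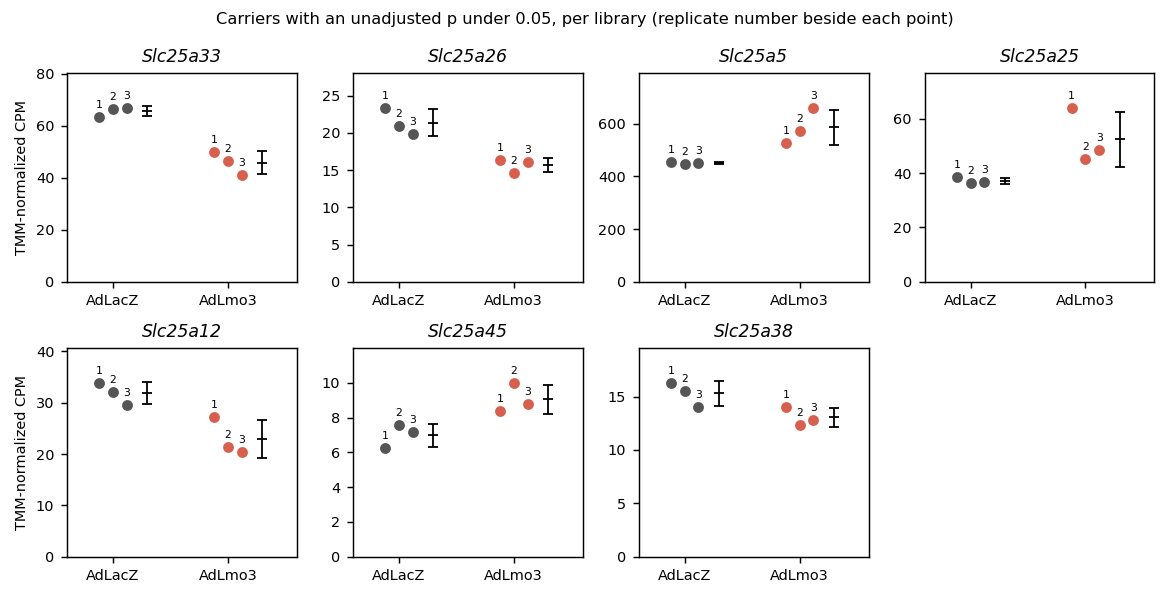
TMM-normalized CPM (vertical axis, from 0) in each library of the 7 SLC25 carriers with an unadjusted p under 0.05, with replicate numbers beside the points and the mean ± SD (n = 3) in black. AdLacZ (gray) and AdLmo3 (red) points do not overlap in any panel, higher in AdLmo3 for Slc25a5, Slc25a25 and Slc25a45 and lower for Slc25a12, Slc25a26, Slc25a33 and Slc25a38. The carriers were picked by p-values from these same libraries, which favors separated groups, and 26.5% of all tested genes had groups that did not overlap.

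Mitochondria import iron through the mitoferrins and glutathione through Slc25a39 and Slc25a40, and none of these 4 genes passed the threshold. Slc25a39 had 370, 412 and 380 CPM in AdLacZ and 343, 377 and 330 CPM in AdLmo3 libraries, with overlap (log2 fold change -0.15, adjusted p = 0.349). Slc25a40 had 16.6, 17.1 and 17.3 CPM in AdLacZ and 16.1, 17.5 and 15.2 CPM in AdLmo3 libraries. The groups overlapped for Slc25a40 too. The mitoferrin genes Slc25a28 (21.8, 26.3 and 22.6 CPM against 23.5, 23.9 and 25.4 CPM) and Slc25a37 (15.9, 22.3 and 16.7 CPM against 16.4, 16.9 and 20.0 CPM) had log2 fold changes of 0.04 and -0.05. The sign of the value of Slc25a28 changes with library size as the only scaling (-0.03).

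The carriers related to uncoupling proteins (Slc25a14, Slc25a27 and Slc25a30) were low, together 17.2 to 19.1 CPM in AdLacZ and 14.98 to 16.5 CPM in AdLmo3 libraries, and none passed the threshold. Of the 6 tested carriers for which no substrate was assigned here, Slc25a45 had a log2 fold change of 0.37 (adjusted p = 0.140). Slc25a34 had 11.9, 53.3 and 26.8 CPM in AdLacZ and 48.4, 56.8 and 26.6 CPM in AdLmo3 libraries. AdLacZ replicate 1 was the lowest and both replicates numbered 2 were the highest, and the groups overlapped. The spread within groups (pooled SD of log2 CPM 0.87) was exceeded by 0.415% of the 9148 genes with at least 10 CPM, against a median SD of 0.12 for the carriers and for all tested genes. Its estimate of 0.52 on the log2 scale (standard error 0.479, adjusted p = 0.605) became 0.13 without AdLacZ replicate 1, 1.19 without AdLacZ replicate 2 (adjusted p = 0.173) and 0.29 without AdLmo3 replicate 2. The 16 tested carriers not named by the rules on level, change or pairs had log2 fold changes from -0.43 to 0.22 with adjusted p from 0.309 to 0.982. Of these, the groups did not overlap for Slc25a17 (higher) and Slc25a53 (lower), named here after their values were seen.

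Ratios of related carriers within a library do not depend on its scaling. Levels per length gave Slc25a24 to Slc25a25 ratios of 1.503, 1.26 and 1.40 in AdLacZ and 0.755, 0.964 and 0.876 in AdLmo3 libraries, a log2 difference of -0.68. The AdLmo3 ratios all lay below the AdLacZ ratios, and whether a ratio exceeds 1 rests on the transcript lengths used. Slc25a36 to Slc25a33 gave 0.253, 0.261 and 0.249 in AdLacZ and 0.303, 0.369 and 0.459 in AdLmo3 libraries (log2 difference 0.55). Slc25a13 to Slc25a12 gave 0.713, 0.888 and 0.930 against 0.940, 1.31 and 1.23 (log2 difference 0.45), where AdLacZ replicate 3 and AdLmo3 replicate 1 were close. The ratios of Slc25a5 to Slc25a4 were 1.503, 1.44 and 1.54 against 1.605, 1.71 and 2.23 (log2 difference 0.29, and 0.15 without AdLmo3 replicate 3). For glutathione, Slc25a39 exceeded Slc25a40 by 36.9, 39.9 and 36.4 times in AdLacZ and by 35.1, 35.5 and 35.9 times in AdLmo3 libraries (log2 difference -0.09, and -0.0459 without AdLacZ replicate 2). The groups overlapped only for Slc25a28 to Slc25a37, with a log2 difference of 0.08 (exact permutation p = 0.5, adjusted over 6 ratios 0.5). Leaving out 1 library moved it to between 0.0101 (without AdLacZ replicate 2) and 0.138 (without AdLmo3 replicate 3). The other 5 ratios had a two-sided exact permutation p of 0.1, the smallest that 3 against 3 libraries allow, and an adjusted p of 0.12, so that none could pass the threshold. Of these 5, all but Slc25a39 to Slc25a40 include a gene whose own groups did not overlap, as was so for 26.5% of all single genes. How often ratios of other gene pairs separate was not tested.

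**Figure D4:**
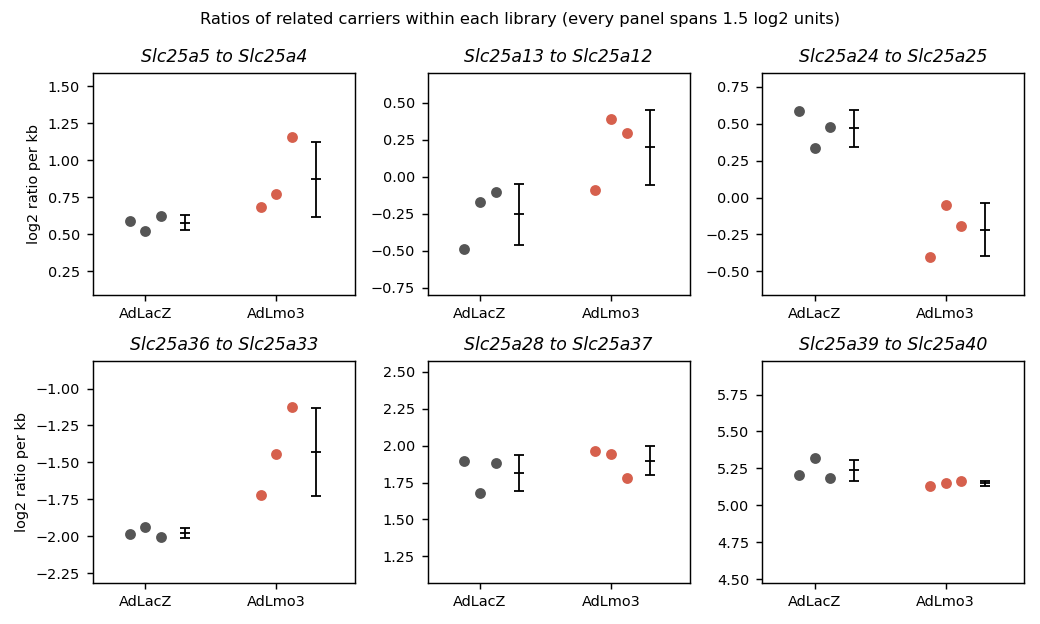
Log2 ratio of CPM per kb (vertical axis) of 6 pairs of related SLC25 carriers in each library, gray for AdLacZ and red for AdLmo3, with mean ± SD (n = 3) in black, every panel spanning the same number of log2 units. The groups do not overlap in 5 panels, and the largest difference is that of Slc25a24 to Slc25a25 (-0.68). Slc25a5, Slc25a12, Slc25a25 and Slc25a33 did not overlap on their own either, and how often other gene pairs separate was not tested.

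The 8 carriers that were not tested were Slc25a2, Slc25a18, Slc25a21, Slc25a31, Slc25a41, Slc25a43, Slc25a48 and Slc25a54, with at most 9 counts in a library. Slc25a43, Slc25a48 and Slc25a54 had 0 counts in all 6 libraries, where 3 counts, taken as the smallest detectable number, correspond to 0.0768 to 0.111 CPM. These floors cover counting error only. Slc25a31 encodes the testis form of the ADP/ATP carrier and had 1, 3 and 2 counts in AdLacZ and 0 in each AdLmo3 library. Slc25a18 went the other way, with 0, 1 and 2 counts in AdLacZ and 5, 3 and 5 in AdLmo3 libraries. Differences at counts this low were not tested.

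Pairs of carriers lie within 50 kb of each other at 4 places in the genome, and at 3 of them a read-rich gene had a neighbor at or near 0 counts. On chromosome X, Slc25a43 (0 counts) ends 18.4 kb before Slc25a5, which had 15263 to 21083 counts. On chromosome 3, Slc25a54 (0 counts) ends 6.46 kb before Slc25a24 with 1191 to 2139 counts, and on chromosome 17, Slc25a41 (0 to 4 counts) lies 2.06 kb from Slc25a23 with 460 to 600 counts. On chromosome 12, Slc25a29 and Slc25a47 start 162 bp apart in opposite directions. The first had 150 to 332 counts and the second 33 to 50 counts.

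The other transporters of the inner membrane comprised 20 listed genes, 19 of them tested, and 3 were called higher and none lower. They were the dicarboxylate carrier Slc25a10 (log2 fold change 0.72, adjusted p = 0.00496), the uncoupling protein Ucp3 (0.65, adjusted p = 0.0102) and Mpc2, a subunit of the pyruvate carrier (0.37, adjusted p = 0.0424). The share of 15.8% higher, against 2.71% of all tested genes, rests on 3 genes, and the list was chosen with earlier results known. The list includes the excepted Slc25a symbols, Slc25a10 among them, and the uncoupling proteins, Ucp3 among them, which are SLC25 family members too. It therefore does not separate SLC25 genes from other transporters. Slc25a10 had 421, 430 and 392 CPM in AdLacZ and 614, 724 and 709 CPM in AdLmo3 libraries, and it passed the threshold in every fit that left out 1 library. Ucp3 lost its call without AdLacZ replicate 3 (adjusted p = 0.0512). Mpc2 kept its call only without AdLacZ replicate 1 among the 6 fits that left out 1 library, with adjusted p-values of 0.105 without AdLacZ replicate 2, 0.170 without AdLacZ replicate 3, and 0.0589, 0.146 and 0.0919 without AdLmo3 replicates 1, 2 and 3. With library size as the only scaling its adjusted p was 0.0769. The citrate carrier Slc25a1 had a log2 fold change of 0.37 (adjusted p = 0.108), the 2-oxoglutarate carrier Slc25a11 of 0.10 (0.559), the acylcarnitine carrier Slc25a20 of -0.04 (0.840), Ucp2 of 0.17 (0.275) and Mcu, the pore of the calcium uniporter, of -0.39 (0.0596). With DESeq2, Slc25a1 and Mcu were called (adjusted p = 0.0182 and 0.0120), and Mcu also with library size as the only scaling (0.0300) or without the count filter (0.0406). Ucp1, the uncoupling protein of thermogenic fat, was not tested. The median of this list was 0.12, against -0.05 for the SLC25 carriers and 0.00 for all genes, and the difference between the lists was not tested. Proteins of the TIM22 route insert carriers into the inner membrane, and of 6 such genes tested none was called by edgeR or DESeq2. Timm10, a chaperone of the intermembrane space, was the 1 gene of these with an unadjusted p under 0.05 (log2 fold change -0.19, adjusted p = 0.231).

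**Figure D5:**
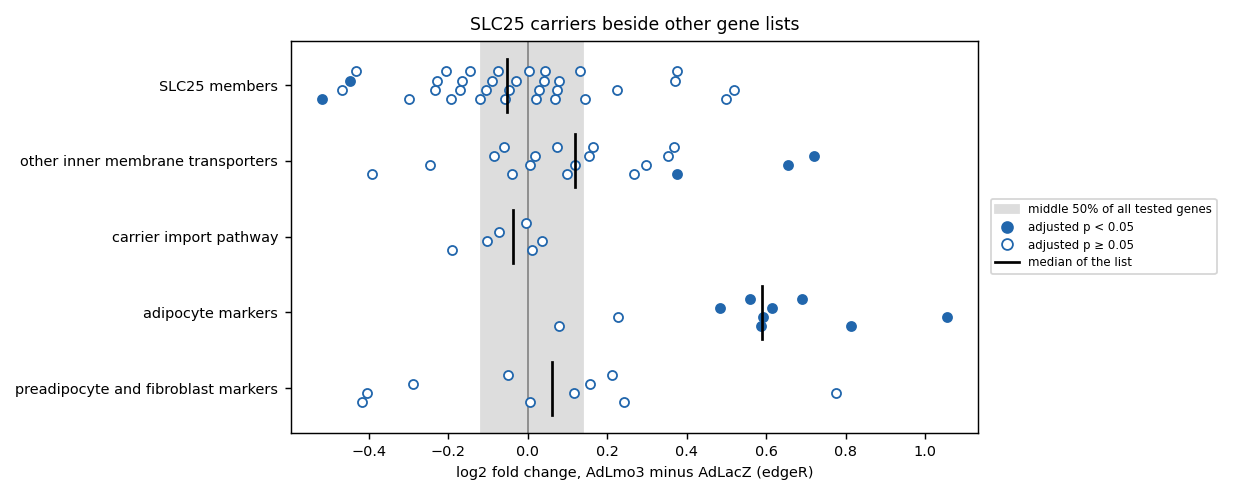
Log2 fold change (AdLmo3 minus AdLacZ, edgeR, horizontal axis) of each tested gene of 5 lists, filled where the adjusted p is under 0.05, with the list median as a black line and the middle 50% of all tested genes as a gray band. The SLC25 carriers spread to both sides of 0 with a median of -0.05, and the adipocyte markers have a median of 0.59.

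With DESeq2, 2 carriers were called higher (Slc25a5 and Slc25a25) and 3 lower (Slc25a12, Slc25a26 and Slc25a33), against 5.06% higher and 3.26% lower of all genes with an adjusted p. The adjusted p-values of Slc25a5, Slc25a12 and Slc25a25 were 0.00174, 0.00762 and 0.00377 with this tool. All 3 also passed with edgeR when the count filter was left out (adjusted p = 0.0386, 0.0365 and 0.0292). Thus the calls of these 3 carriers depend on the test and its settings. The fold changes were alike in edgeR and DESeq2, at 0.38, -0.47 and 0.50 on the log2 scale.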

How the data were processed

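The authors prepared libraries (NEBNext Ultra II kit), sequenced single reads of 75 bp, mapped them with STAR 2.5.0b to mm10 and, per the labels, used DESeq2 1.6.3. They deposited counts per gene symbol for each library, without normalization; the counting program, annotation and strand setting are not given in the sources used here. Lines of reads assigned to no gene (7.15% to 8.94%) or to several (0.476% to 0.543%) were left out.

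The groups were compared by the quasi-likelihood test of edgeR 4.0.16 (R 4.3.3) after filterByExpr and TMM scaling, adjusting by Benjamini-Hochberg over 12766 genes at a threshold of 0.05. Standard errors were derived from the log2 fold change and the F statistic of this test, and 95% confidence intervals from these with a t quantile. Alternatives were DESeq2 1.42.0, limma 3.58.1 (voom), RLE or library size scaling, other count filters, the replicate block and leaving out each library. On simulated counts with known changes edgeR recovered 171 of 197 changed genes with 7.07% false calls and the replicate block 170 of 197 with 10.5% (12676 genes), and DESeq2 171 of 200 with 14.9% (12766 genes). Recovery of changes as small as those of the carriers was not tested separately. The 3 infections per group are separate, so the p-values measure the spread between infections. Ratios of related carriers were compared by exact permutation tests.

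Positions, lengths and shared stretches came from the GENCODE annotation of GRCm38, promoters from RefSeq. Figures were drawn with matplotlib 3.10.9. Of the 43 genes that meet the rule, 1 is not reported here and enters no count of carriers. The members, roles and gene lists were chosen with earlier results of these data known. Named carriers are those with an adjusted or unadjusted p under 0.05, the 5 highest per length, the 5 largest changes, the related pairs and the untested ones, and in other lists the called genes, the 4 excepted carriers, Ucp1, Ucp2 and up to 5 with the largest change. CPM per kb uses the principal transcript.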

Additional observations from a re-analysis of the deposited data

How the results depend on the processing

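The number of called genes was 1096 with DESeq2 and ranged from 77 to 501 when 1 library was left out, lowest without AdLacZ replicate 3. The SLC25 carriers called higher numbered 2 without the count filter, 2 with DESeq2 and 0 to 2 without 1 library, and those called lower 3 with library size only, without the count filter and with DESeq2, and 0 to 2 without 1 library. Slc25a12 was the added lower call (adjusted p = 0.0421, 0.0365 and 0.00762). The other inner membrane transporters called numbered 8 with DESeq2 and 1 to 4 over the remaining alternatives. The numbers of the libraries were not shown to pair them: deviations of same-numbered libraries correlated by 0.0345, 0.176 and 0.176, and AdLacZ replicate 1 correlated best with AdLmo3 replicate 3 (0.111). With the replicate block 498 genes were called, with 1 carrier higher (Slc25a25) and 3 lower (Slc25a12, Slc25a26 and Slc25a33), Slc25a1 was called (adjusted p = 0.0456) and Mpc2 was not (0.0572). Values near 0 changed sign with library size only for Slc25a3 (-0.0527), Slc25a22 (-0.00091), Slc25a36 (-0.0461), Slc25a28 (-0.0307), Timm10b (-0.0382) and Tomm70a (-0.0641). The median log2 fold change of all tested genes was -0.0719 with library size only and 0.00138 with TMM scaling. Without 1 library the log2 fold changes ran from -0.0178 to 0.0759 for Slc25a3, -0.00928 to 0.14 for Slc25a22, -0.097 to 0.0222 for Slc25a13, -0.0471 to 0.11 for Slc25a36, -0.0122 to 0.13 for Slc25a28, -0.14 to 0.12 for Slc25a37, -0.11 to 0.0332 for Slc25a20, -0.0102 to 0.0714 for Timm10b and -0.0386 to 0.0683 for Tomm70a. The cause was not tested. Fewer samples are left when a library is omitted, and levels under about 0.1 CPM are not detectable at this depth.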
